A study of Mus musculus with 5 samples.

Results

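The 35 genes described here carry glucose into the cell, break it down to pyruvate and lactate, move lactate across the cell membrane, and store or release glucose as glycogen. They were taken by name from a table of 40624 genes: 34 matched their deposited symbol, and Pkm, deposited under its older symbol Pkm2, was found by its Ensembl identifier. All 35 had enough reads to be tested, among 17835 tested genes. RNA was sequenced from atrial tissue of C57BL/6 mice at postnatal day 1. The 2 mutant libraries (replicates 5 and 7) came from SLN-Cre mice with both Nkx2-5 alleles floxed (flox/flox), and the 3 control libraries (replicates 2, 4 and 6) from SLN-Cre mice with 1 floxed allele (flox/+). Both groups therefore carry the Cre recombinase, which is driven by the promoter of Sln, a gene of atrial muscle cells. Controls also lose 1 functional Nkx2-5 allele wherever the Cre acts, and other cell types of the atrium are not the target of the deletion. Nkx2-5 is a homeodomain transcription factor of heart muscle. The comparison asks which atrial RNAs differ once it is lost.

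Glycolysis splits glucose into pyruvate in the cytosol and yields ATP without oxygen. Lactate dehydrogenase interconverts pyruvate and lactate, monocarboxylate transporters carry lactate across membranes, and the pyruvate dehydrogenase complex commits pyruvate to oxidation in mitochondria. The heart around birth is known for moving away from glucose and lactate as fuels towards fatty acids. Most steps are served by several isoenzymes, each with its own gene and its own preferred tissues, so both the summed level of a step and the balance between isoenzymes can be read from RNA.

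Nkx2-5 itself had 5.79 and 5.21 CPM (gene counts scaled to a common library size) in mutant atria and 76.8, 72.1 and 71.3 CPM in control atria, so it was low in both libraries labelled mutant. Libraries held 78.8 and 69.6 M gene counts in the mutant group and 58.5 to 60.9 M in the control group. No library repeated another, since counts of replicates differed with a chi-square per degree of freedom well beyond sampling noise. It was 19.9 to 33.2 between controls and 84.9 between the 2 mutant libraries. Between a mutant and a control library it was 80.0 to 122, so the mutant libraries differed from each other about as much as from some controls. The labels do not say whether each library came from 1 animal or a pool, and the p-values reflect only how these samples vary. Sex-linked RNA differed within each group, so the libraries of a group did not all come from 1 animal. Markers of atrial muscle were abundant, with a summed level of 55538 and 51685 CPM in mutant atria and 54779 to 56952 CPM in control atria. Of the 10 markers, Nppa and Gja5 fell and Bmp10 rose. Summed markers of other cell types differed too. Smooth muscle markers summed to 2050 and 1596 CPM in mutant atria, against 611 to 756 CPM in control atria. Acta2 was the 1 marker of 4 that passed, and DESeq2 called 2. Skeletal muscle markers summed to 3454 and 3313 CPM in mutant atria, against 2447 to 2521 CPM in control atria. Of these 9, Tnnt3 rose, with 1020 and 1085 CPM in mutant atria and 58.7, 88.6 and 32.7 CPM in control atria, Actn3 and Pvalb fell, and Myog and Myh3 had at most 0.455 and 0.513 CPM in any library. Red blood cell markers summed to 1030 and 1051 CPM in mutant atria and 698 to 867 CPM in control atria. Of these 7 markers 6 were tested and Hba-a1 passed, with 3 at an unadjusted p under 0.05, and DESeq2 called 2. Fibroblast markers summed to 3896 and 3852 CPM in mutant atria and 4905 to 5822 CPM in control atria (Dcn fell, 1 of 5). Of the fibroblast markers 3 lay at an unadjusted p under 0.05 and DESeq2 called 3. Epicardial markers summed to 592 and 594 CPM in mutant atria and 864 to 1034 CPM in control atria (3 of 4 fell). Endothelial markers summed to 1058 and 1326 CPM in mutant atria and 954 to 1012 CPM in control atria (0 of 5 passed edgeR's test, with 3 at an unadjusted p under 0.05, and DESeq2 called 1). Macrophage and leukocyte markers summed to 144 and 147 CPM in mutant atria and 115 to 135 CPM in control atria (Adgre1 rose, 1 of 5). At an unadjusted p under 0.05 there were 4 of them, and DESeq2 called 2. The sums of ventricular, fat and neural markers overlapped between groups, though single markers differed. Of the 5 ventricular markers 1 passed edgeR's test, Hey2, which rose, and DESeq2 called 2. Hey2 had 36.4 and 34.5 CPM in mutant atria and 5.48, 5.58 and 6.56 CPM in control atria. Myl3 had 22.3 and 15.4 CPM in mutant atria and 124, 67.2 and 145 CPM in control atria, without passing. Myh7 made up most of the ventricular sum and overlapped between groups. Among the fat markers Cidea rose. In bulk RNA, fewer cells of a type and less RNA per cell cannot be told apart, and the part of these cell types in the results below was not tested.

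Between mutant and control atria 6 of the 35 genes passed an adjusted p of 0.05, 4 higher and 2 lower. Hk1, Pgam1, Slc2a1 and Gys1 rose and Slc16a3 and Aldoc fell, by 1.26-fold to 1.5-fold upwards and to 0.62 and 0.64 of the control level downwards. Over all tested genes 6.58% passed, 3.02% higher and 3.57% lower in mutant atria. The other 29 members did not pass, which does not show that they were alike in both groups. The log2 fold changes of the members ran between -0.68 and 0.58 with a median of 0.07, 24 positive and 11 negative, while the median over all tested genes was 0.01. At an unadjusted p under 0.05 there were 13 members, 8 higher and 5 lower, and over all tested genes 20.8% lay there. The groups did not overlap in 20 members, 12 higher and 8 lower in mutant atria, and 37.9% of all tested genes had such separate groups. Summed over the 35 genes, the level was 16651 and 15661 CPM in mutant atria and 15633, 14966 and 14815 CPM in control atria. The groups were separate by a narrow margin, since the lower mutant library lay just above the highest control.

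**Figure D1:**
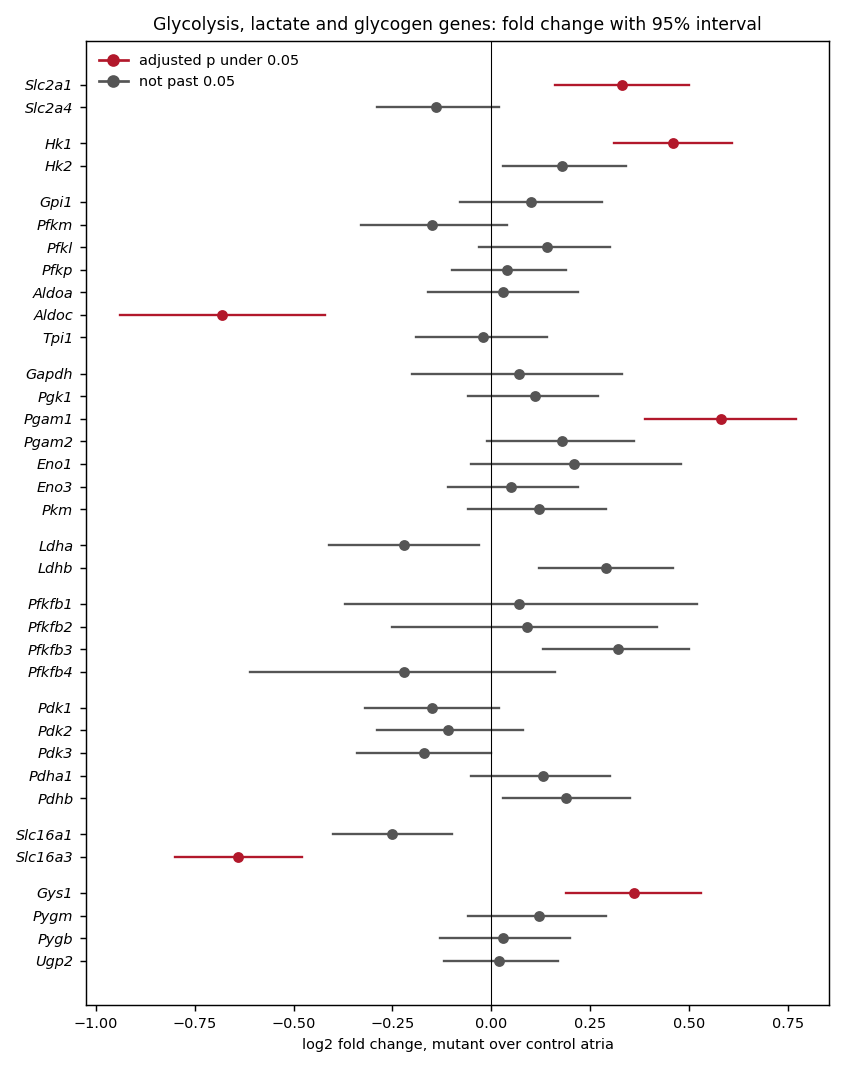
Log2 fold change, mutant over control atria, of each of the 35 genes (points) with its 95% interval (lines), grouped by step of the pathway and red where edgeR's adjusted p lay under 0.05. Slc2a1, Hk1, Pgam1 and Gys1 stand to the right of 0 and Aldoc and Slc16a3 to the left, and the other 29 points lie between -0.25 and 0.32.

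The promoters of 3 of the 6 called genes are printed because each has a single listed start site and holds at least 1 of 2 motifs: TNAAGTG, the binding element of NK-2 homeodomain factors such as Nkx2-5, and ACGTG, the core of the hypoxia response element bound by Hif1a and its partner. The sequences are RefSeq's on build GRCm38.p6, 250 bases ending at the base before the start site and read along the gene's strand, with matches to these 2 motifs on either strand in capitals.
Slc2a1, chr4:119108495-119108744, plus strand: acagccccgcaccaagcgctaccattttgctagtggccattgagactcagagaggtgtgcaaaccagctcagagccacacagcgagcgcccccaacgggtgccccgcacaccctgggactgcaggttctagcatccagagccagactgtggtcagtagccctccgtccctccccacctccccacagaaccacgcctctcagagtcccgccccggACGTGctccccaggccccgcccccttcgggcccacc
Pgam1, chr19:41911621-41911870, plus strand: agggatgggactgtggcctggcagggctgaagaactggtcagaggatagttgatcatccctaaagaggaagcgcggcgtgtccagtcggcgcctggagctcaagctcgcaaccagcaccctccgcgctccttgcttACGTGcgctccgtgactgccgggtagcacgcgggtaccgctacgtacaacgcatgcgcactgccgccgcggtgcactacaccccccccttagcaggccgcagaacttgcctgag
Slc16a3, chr11:120948817-120949066, plus strand: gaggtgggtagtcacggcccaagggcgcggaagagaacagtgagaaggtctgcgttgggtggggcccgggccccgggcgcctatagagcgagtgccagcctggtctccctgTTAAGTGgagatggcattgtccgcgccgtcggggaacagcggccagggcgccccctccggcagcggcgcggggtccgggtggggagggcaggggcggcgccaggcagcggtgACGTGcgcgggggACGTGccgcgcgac
In these windows ACGTG began at position -36 in Slc2a1, at -114 in Pgam1 and at -27 and -14 in Slc16a3, counted from the start site, and TNAAGTG began at -139 in Slc16a3. The listed promoters of Hk1 (2), Aldoc (2) and Gys1 (1) held neither. RefSeq's table had 54 promoters for 34 of the 35 genes. TNAAGTG was in 3 of the 54 (5.56%; Slc16a3, Ldha and Pdk1), against 10.1% of all 32851 promoters of this length. ACGTG was in 22 of the 54 (40.7%), which belong to 18 genes, against 16.6% of all promoters. The E-box CACGTG, which contains ACGTG and is read by Myc and by carbohydrate-response factors, was in 6 of the 54 (11.1%), against 6.02% of all promoters. Promoters of 1 gene can overlap, and a match describes letters and not binding.

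Glucose enters heart muscle through Slc2a1 (GLUT1), the basal carrier of fetal heart, and Slc2a4 (GLUT4), the insulin-responsive carrier of adult heart. Slc2a1 (chr4:118781560-118809051 in mm9, the coding span listed in the deposited table, as for the other positions given below) had 158.6 and 152.8 CPM in mutant atria, against 134.8, 118.9 and 118.3 CPM in control atria. Both mutant libraries lay above all controls. The log2 fold change was 0.33 ± 0.07 (SE; adjusted p = 0.034 by Benjamini-Hochberg, edgeR quasi-likelihood). This call was among the least firm: with the same test it was lost under library totals alone (adjusted p = 0.051), with sex as a covariate (0.057), and without mutant 5 (0.066), mutant 7 (0.057), control 4 (0.15) or control 6 (0.12), in a range of 0.004 to 0.15 over 13 settings. Slc2a4 had 67.7 and 67.1 CPM in mutant atria and 78.1, 73.9 and 70.2 CPM in control atria. Its groups were separate, with a log2 fold change of -0.14 (95% interval -0.29 to 0.02), and it did not pass. Beside Slc2a1 and the other higher genes, the red blood cell, smooth muscle, endothelial and macrophage marker sums given above were also higher in mutant atria. Of these markers only Hba-a1, Acta2 and Adgre1 passed edgeR's test, and no endothelial marker did. The smooth muscle markers Tagln and Cnn1 overlapped between groups. The skeletal muscle sum was higher too, but of its 9 markers only Tnnt3 passed as higher. Actn3 and Pvalb fell, and Ckm, the most abundant of the 9, overlapped between groups.

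Hexokinases trap glucose in the cell as glucose 6-phosphate. Hk1, the widely expressed form (chr10:61732657-61824985, minus strand), had 446.0 and 444.1 CPM in mutant atria and 326.4, 319.2 and 324.4 CPM in control atria. The mutant libraries lay close together and far above the controls, with a log2 fold change of 0.46 ± 0.07 (SE; adjusted p = 0.0054 by Benjamini-Hochberg, edgeR quasi-likelihood). Hk1 was 1.38-fold higher and kept its call in all 13 settings tried, at adjusted p of at most 0.034. Hk2, the insulin-responsive form of muscle, had 70.5 and 71.6 CPM in mutant atria, against 64.8, 58.7 and 64.4 CPM in control atria. Its groups were also separate, at a log2 fold change of 0.18 (95% interval 0.03 to 0.34), without passing (adjusted p = 0.17 by Benjamini-Hochberg, edgeR quasi-likelihood).

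The upper steps, up to the triose phosphates, held 1 call among 7 genes. Aldoc, the brain form of aldolase (chr11:78137904-78139856), fell: it had 7.21 and 7.02 CPM in mutant atria and 12.3, 10.8 and 11.03 CPM in control atria. The highest mutant value was well below the lowest control value, and the log2 fold change was -0.68 ± 0.11 (SE; adjusted p = 0.011 by Benjamini-Hochberg, edgeR quasi-likelihood). Aldoa, the muscle form, had 2311 and 2076 CPM in mutant atria and 2245, 2068 and 2123 CPM in control atria. It overlapped between groups, with a log2 fold change of 0.03 (95% interval -0.16 to 0.22). Per kilobase of the deposited gene length Aldoc is a minor form, at 1.35 CPM in mutant and 2.16 CPM in control atria, against 454 CPM in mutant and 444 CPM in control atria for Aldoa. Gpi1, which turns glucose 6-phosphate into fructose 6-phosphate, had a log2 fold change of 0.10, and Tpi1, which interconverts the triose phosphates, of -0.02. The phosphofructokinase genes, which serve the committed step, did not pass: Pfkm (muscle form) had a log2 fold change of -0.15, Pfkl (liver form) of 0.14 and Pfkp (platelet form) of 0.04. Pfkm had 313.5 and 287.5 CPM in mutant atria, all below the 318.9 to 355.6 CPM of control atria. Pfkl had 270.4 and 250.3 CPM in mutant atria, all above the 226.2 to 249.1 CPM of control atria.

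The lower steps, which yield ATP and pyruvate, all had positive log2 fold changes, 0.05 to 0.58 over 7 genes with a median of 0.12, and 1 passed. The positive sign did not hold in every split: Gapdh was at -0.07 without mutant 5 and -0.01 without control 6, and Eno3 at -0.01 without mutant 5. Within sex, Eno1 was at -0.08 in the male pair, and Gapdh at -0.07 and Eno3 at -0.01 in the female libraries. Pgam1, the widely expressed phosphoglycerate mutase (chr19:41986538-41992265), rose most of the 35 genes: it had 562.0 and 482.8 CPM in mutant atria, against 340.6, 348.4 and 359.0 CPM in control atria. The mutant libraries differed from each other by more than the controls did, and both were far above them. The log2 fold change was 0.58 ± 0.08 (SE; adjusted p = 0.0054 by Benjamini-Hochberg, edgeR quasi-likelihood). Of the 50-base words of Pgam1 transcripts, 41.5% also occur in other genes, mainly the near-identical copy Pgam1-ps2. Copies took 13.8% and 13.9% of the joint reads in mutant atria and 14.5%, 13.7% and 13.8% in control atria, and with copies added the log2 fold change was again 0.58 (adjusted p = 0.0053 by Benjamini-Hochberg, edgeR quasi-likelihood). Pgam2, the muscle form, had 946.7 and 899.0 CPM in mutant atria and 872.8, 819.6 and 758.9 CPM in control atria. It stood above the controls in both mutant libraries, at a log2 fold change of 0.18 (95% interval -0.01 to 0.36), without passing.

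The remaining lower genes lay closer to the controls. Pgk1, the kinase that makes ATP from 1,3-bisphosphoglycerate, had 832.2 and 800.1 CPM in mutant atria and 728.4 to 778.4 CPM in control atria. Pkm, the muscle pyruvate kinase gene, had 1660 and 1565 CPM in mutant atria and 1437 to 1560 CPM in control atria. In both genes the lower mutant library was just above the highest control, and neither passed (log2 fold changes 0.11 and 0.12). Eno3, the muscle enolase, overlapped between groups at a log2 fold change of 0.05. Eno1, the widely expressed enolase, had 695.0 and 777.2 CPM in mutant atria and 582.4, 736.0 and 586.1 CPM in control atria, so that control 4 lay above mutant 5. Its log2 fold change was 0.21 (95% interval -0.05 to 0.48), and 49.5% of its 50-base words also occur in other genes. Gapdh, the triose phosphate dehydrogenase, was counted at 53.9 and 44.9 CPM in mutant atria and 41.9 to 52.7 CPM in control atria. Per kilobase that is 18.2 CPM in mutant and 17.4 CPM in control atria, far under the 287 CPM in mutant and 266 CPM in control atria of Pgk1, the next enzyme. Of the 50-base words of Gapdh, 58.4% also occur among 222 other genes, and the copies listed in the table held 69.6% and 75.1% of the joint reads in mutant atria and 69.5% to 75.9% in control atria. The part of shared reads in the low count of Gapdh was not tested.

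The share of joint reads that was counted for near-identical copies also varied between libraries of the same group. For Eno1 and its copies Eno1b and Gm4735 the copies took 31.8% in mutant 5 and 23.8% in mutant 7, against 31.5%, 23.4% and 31.6% in controls 2, 4 and 6. For Ldhb and its copy Gm5514 the copy took 2.60% in mutant 5 and 4.26% in mutant 7, against 2.55%, 4.33% and 2.62% in controls 2, 4 and 6. In both families mutant 7 and control 4 stood apart from the other libraries, a split that follows neither the genotype nor the sex read from RNA, and its cause was not tested. With the copies added, the log2 fold change of Eno1 was 0.20 ± 0.08 (SE; adjusted p = 0.21) and that of Ldhb 0.29 ± 0.07 (adjusted p = 0.053), both by Benjamini-Hochberg, edgeR quasi-likelihood. With copies Eno1 had 1019 and 1020 CPM in mutant atria, against 850, 961 and 857 CPM in control atria, so that its groups, which overlap in its own counts, were separate. With this split as a covariate, chosen after seeing the data, the same 6 members passed. The groups of each of these 6 genes were separate, so the direction could not differ between the parts of the split. Only the sizes could vary. The log2 difference of mutant 7 over control 4, and then of mutant 5 over controls 2 and 6, was 0.48 and 0.45 for Hk1, 0.47 and 0.68 for Pgam1, 0.36 and 0.33 for Slc2a1, 0.28 and 0.44 for Gys1, -0.58 and -0.66 for Slc16a3 and -0.62 and -0.69 for Aldoc.

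**Figure D2:**
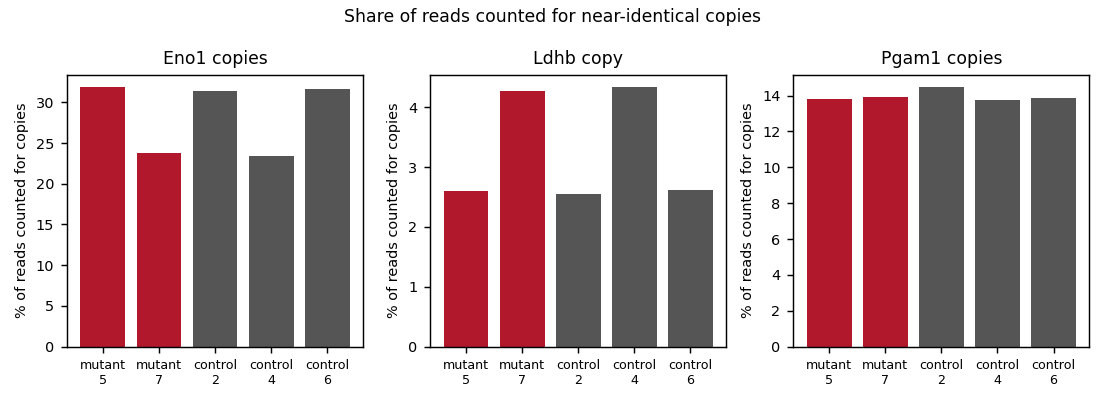
Percent of the joint reads of a gene and its near-identical copies that was counted for the copies, in each library, for Eno1, Ldhb and Pgam1 (bars, mutant red, control grey). Mutant 7 and control 4 differ from the other libraries for Eno1 (23.8% and 23.4%) and Ldhb (4.26% and 4.33%), and for Pgam1 all 5 libraries lie between 13.7% and 14.5%.

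**Figure D3:**
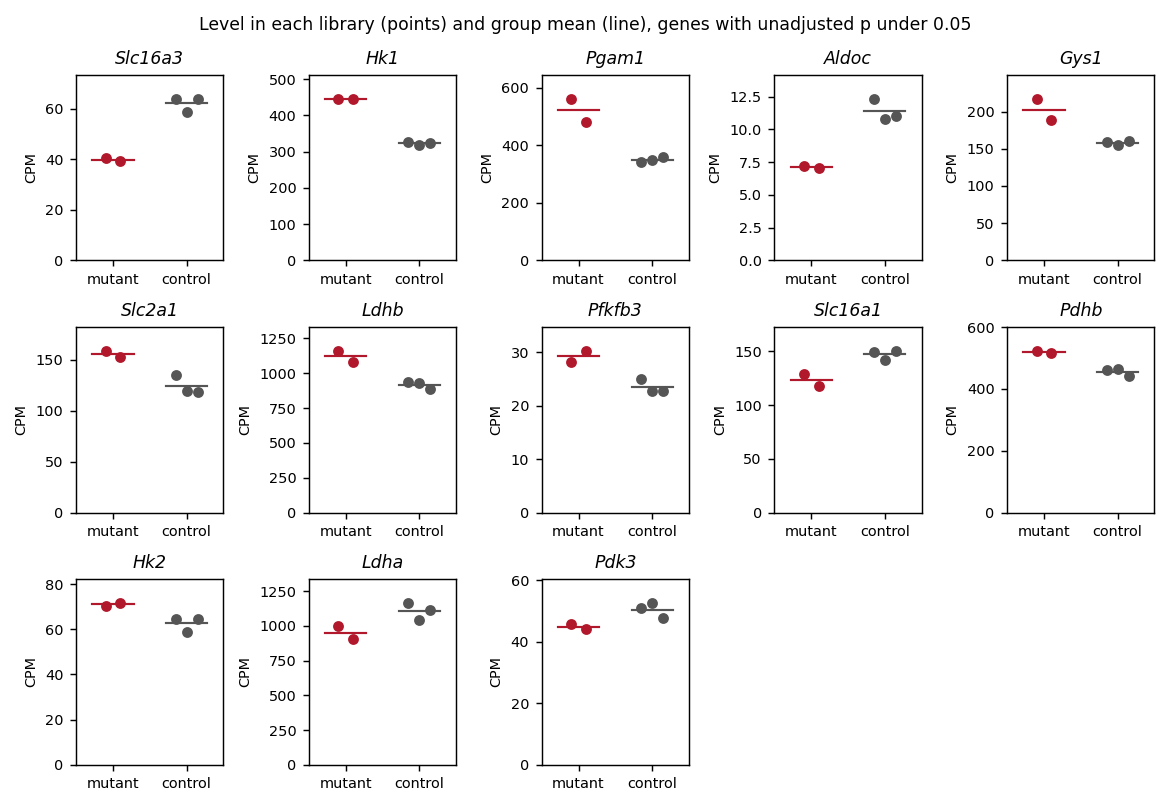
CPM of the 13 genes with an unadjusted p under 0.05, ordered by p, in each mutant and each control library (points) with the group means (lines). In every panel the mutant and control points are separate, with the mutant points lower in Slc16a3, Aldoc, Slc16a1, Ldha and Pdk3 and higher in the other 8 genes.

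Lactate dehydrogenase is a tetramer of the Ldha (M) and Ldhb (H) subunits, H being the form of heart. Ldhb had 1160 and 1081 CPM in mutant atria and 934.4, 933.2 and 885.4 CPM in control atria. Ldha had 996.2 and 908.5 CPM in mutant atria and 1164, 1046 and 1115 CPM in control atria. Each gene had separate groups, on opposite sides. The log2 fold change was 0.29 ± 0.07 for Ldhb and -0.22 ± 0.08 for Ldha (SE), and neither passed (adjusted p = 0.056 and 0.17 by Benjamini-Hochberg, edgeR quasi-likelihood). Both had an unadjusted p under 0.05. For Ldhb 5 of 14 alternative settings gave a call, DESeq2 among them, with adjusted p-values between 7.9e-04 and 0.18, while Ldha had values between 0.068 and 0.48 over 13 settings.

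The log2 ratio of Ldha over Ldhb counts was -0.22 and -0.25 in mutant atria, against 0.32, 0.16 and 0.33 in control atria. The sign of the log2 count ratio was thus negative in both mutant libraries and positive in all 3 controls, on a scale not corrected for length. The mean difference was -0.51 (exact permutation p = 0.1, two-sided, the smallest that 2 against 3 libraries allow; 0.16 after Benjamini-Hochberg adjustment over 11 pairs). Per length, with the gene lengths of the deposited table, the mean ratio was 0.358 in mutant atria and 0.508 in control atria, so Ldhb was the higher gene in both groups on that scale. The length used changes such a ratio but not its difference between groups.

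The same balance was computed for 10 further pairs of isoenzymes, transporters or kinases. In 9 of the 11 pairs the groups did not overlap, 7 with a lower and 2 with a higher ratio in mutant atria. Of these 9 pairs 5 hold a gene that passed (Slc2a1, Hk1, Aldoc, Pgam1 or Slc16a3), so the count in part restates those calls, and no share of separate groups was computed for other pairs of genes. Slc2a4 over Slc2a1 differed by -0.47 on the log2 scale, with ratios of 0.427 and 0.439 in mutant atria and 0.579 to 0.622 in control atria. Pgam2 over Pgam1 differed by -0.40, Slc16a3 over Slc16a1 by -0.39, Hk2 over Hk1 by -0.28 and Pfkm over Pfkl by -0.28. Aldoa over Aldoc differed by 0.71, with ratios of 320 and 296 in mutant atria and 182 to 192 in control atria. All of these had an exact permutation p of 0.1 (two-sided), the smallest possible, and 0.16 after adjustment over the 11 pairs. In glucose uptake, hexokinase, phosphofructokinase and mutase, the ratio of the form usual in adult muscle to the other form was lower in both mutant libraries than in any control. In aldolase and glycogen phosphorylase it was higher. Pfkm over Pfkp (-0.19) and Pygm over Pygb (0.08) had an exact permutation p of 0.2, and Eno3 over Eno1 (-0.17, p = 0.4) and Pdk2 over Pdk1 (0.04, p = 0.7) overlapped between groups.

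**Figure D4:**
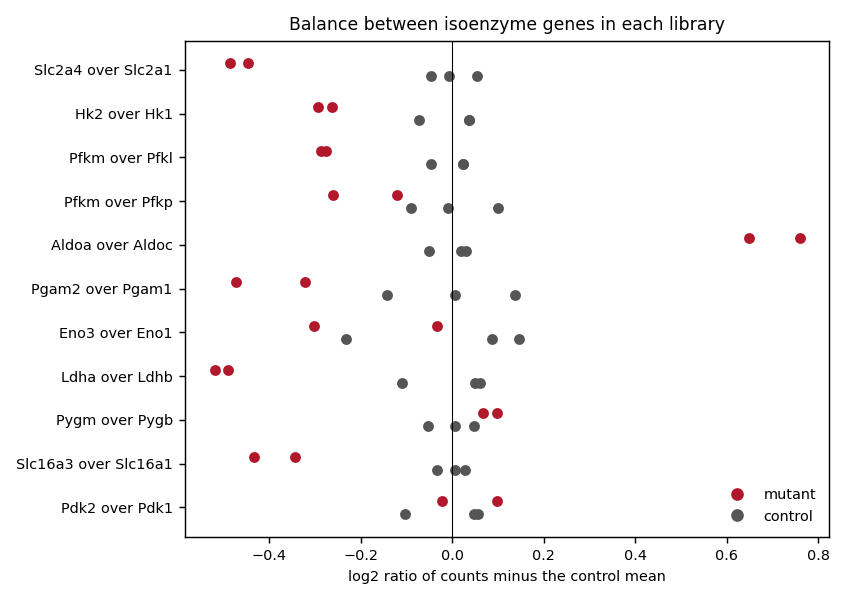
Log2 ratio of the counts of 2 related genes in each library, minus the mean of the controls, for 11 pairs (upper points mutant, lower points control). Mutant points stand apart from the controls in 9 pairs, at the right for Aldoa over Aldoc and at the left for pairs such as Ldha over Ldhb and Slc2a4 over Slc2a1.

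Fructose 2,6-bisphosphate, the strongest activator of phosphofructokinase, is made and removed by the Pfkfb enzymes. None of the 4 genes passed edgeR's test, with 1 at an unadjusted p under 0.05, and DESeq2 called 1, in both cases Pfkfb3. Pfkfb3, the form with high kinase activity, had 28.2 and 30.3 CPM in mutant atria and 24.9, 22.8 and 22.7 CPM in control atria. Its groups were separate, at a log2 fold change of 0.32 ± 0.08 (SE; adjusted p = 0.057 by Benjamini-Hochberg, edgeR quasi-likelihood). Pfkfb2, the form best known from heart, had 21.3 and 29.8 CPM in mutant atria, on both sides of the 22.5 to 26.2 CPM of control atria. Pfkfb1 and Pfkfb4 lay between 3.0 and 5.0 CPM in all libraries and overlapped between groups.

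At the branch from pyruvate into the mitochondrion, Pdha1 and Pdhb encode the subunits of pyruvate dehydrogenase's first enzyme, and Pdk1, Pdk2 and Pdk3 encode kinases that switch it off. No gene of the 5 passed edgeR's test, 2 lay at an unadjusted p under 0.05, and DESeq2 called 1 (Pdhb). Pdhb had 522.9 and 516.6 CPM in mutant atria and 462.0, 465.0 and 440.5 CPM in control atria (log2 fold change 0.19, 95% interval 0.03 to 0.35). Pdk3 had 45.6 and 44.0 CPM in mutant atria and 50.8, 52.5 and 47.8 CPM in control atria (log2 fold change -0.17, 95% interval -0.34 to -0.00). In both the groups were separate, Pdhb being higher and Pdk3 lower in mutant atria. Pdk1 (-0.15) and Pdk2 (-0.11) had negative and Pdha1 (0.13) a positive log2 fold change. Pdk4, a further kinase gene outside the 5, had a positive log2 fold change of 0.23, overlapped between groups and did not pass.

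Lactate and pyruvate cross the membrane through Slc16a1 (MCT1), the carrier of heart muscle, and Slc16a3 (MCT4), the carrier best known for lactate export from glycolytic muscle. Slc16a3 (chr11:120816561-120819446) had the smallest p of the 35 genes. It had 40.3 and 39.3 CPM in mutant atria and 63.9, 58.7 and 63.6 CPM in control atria, so that every control was far above both mutants. The log2 fold change was -0.64 ± 0.07 (SE; adjusted p = 0.0019 by Benjamini-Hochberg, edgeR quasi-likelihood). It kept its call in all 13 settings, at adjusted p of at most 0.013. No 50-base word of its transcripts occurs in another gene. Slc16a1 had 129.0 and 118.0 CPM in mutant atria and 148.9, 142.2 and 150.3 CPM in control atria, also separate and also lower. Its log2 fold change was -0.25 ± 0.07 (SE) and it did not pass (adjusted p = 0.059 by Benjamini-Hochberg, edgeR quasi-likelihood; called in 4 of 13 settings). Beside these lower genes, the epicardial and fibroblast marker sums given above were also lower in mutant atria.

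Glycogen is built from UDP-glucose by glycogen synthase and cut by glycogen phosphorylase. Gys1, the synthase of muscle (chr7:52690423-52710737), had 217.2 and 188.3 CPM in mutant atria, against 159.5, 155.2 and 160.2 CPM in control atria. Both mutant libraries lay above the controls, mutant 5 by more than mutant 7, and the log2 fold change was 0.36 ± 0.07 (SE; adjusted p = 0.026 by Benjamini-Hochberg, edgeR quasi-likelihood). The call was lost without control 2 (adjusted p = 0.10), control 4 (0.11) or control 6 (0.074) in the same test, in a range of 7.7e-04 to 0.11 over 13 settings. Exons of Gys1 share 310 bases with the opposite-strand gene Ruvbl2, and the use of strand in counting is not stated, so their reads cannot be told apart there. Hk1 and Slc2a1 share 157 and 105 exonic bases in the same way with Hk1os and Gm12868, which had at most 16 reads in any library. Ugp2, which makes UDP-glucose, and the phosphorylases Pygm (muscle form) and Pygb (brain form) had log2 fold changes of 0.02, 0.12 and 0.03 and overlapped between groups.

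All 6 called genes moved the same way in both sexes, as read from sex-linked RNA. Since the groups of each of these genes were separate, the direction could not differ between the sexes. Only the sizes of the differences could vary. By sex-linked RNA mutant 5 and control 4 read as male, and mutant 7 and controls 2 and 6 as female. Each library was given 1 sex, by whether Xist or Y-linked RNA had more reads, so a pool of both sexes would not show. The log2 difference, male pair first and female libraries second, was 0.48 and 0.45 for Hk1, 0.69 and 0.47 for Pgam1, 0.42 and 0.27 for Slc2a1 and 0.48 and 0.24 for Gys1. It was -0.54 and -0.70 for Slc16a3 and -0.58 and -0.73 for Aldoc. With 1 male mutant, these differences have no replicate check. In the authors' deposited table, 6 members had an adjusted p under 0.05, and they were the same 6. That table gives Slc16a3 4.16 RPKM in mutant and 6.58 RPKM in control atria, with an adjusted p of 1.8e-06, as the authors' deposited values.

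Levels were compared between genes per kilobase, with the gene lengths of the deposited table. Pgam2 was the highest of the 35 genes, at 1099 ± 40.2 CPM per kilobase in mutant atria and 973 ± 67.8 in control atria (SD, n = 2 and 3). Ldhb had 571 ± 28.4 in mutant and 468 ± 14.2 in control atria, and Pkm 531 ± 22.1 in mutant and 489 ± 21.8 in control atria, so their order differed between the groups. Aldoa followed at 454 ± 34.3 in mutant and 444 ± 18.8 in control atria. In control atria neighbours among these last 3 genes differed by less than the sum of their SDs, while Pgam2 stood apart in both groups. The order depends on the length used. Per kilobase of the longest coding transcript, Aldoa came first, at 1416 CPM in mutant and 1385 in control atria. Pgam2 was second at the same levels as before. On that scale Ldhb lay above Pkm in both groups, at 859 against 663 CPM in mutant atria and 704 against 610 in control atria. The lowest genes were Pfkfb4, at 0.495 ± 0.0851 in mutant and 0.579 ± 0.0564 in control atria, and Pfkfb1, at 0.770 ± 0.124 and 0.732 ± 0.131, in CPM per kilobase of the deposited length.

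Of 74 other genes of glucose, lactate and glycogen metabolism 69 were tested, and 6 passed (8.70%, beside 6.58% of all tested genes), 4 higher and 2 lower in mutant atria. Their median log2 fold change was 0.05. Pcx, pyruvate carboxylase, which turns pyruvate into oxaloacetate, had 24.0 and 22.8 CPM in mutant atria and 15.6, 14.1 and 15.2 CPM in control atria (log2 fold change 0.65 ± 0.08 SE; adjusted p = 0.0035 by Benjamini-Hochberg, edgeR quasi-likelihood). Pcx kept its call in all 13 settings. Gbe1, the glycogen branching enzyme, had 117.4 and 108.8 CPM in mutant atria and 90.4, 89.1 and 93.3 CPM in control atria (log2 fold change 0.32). Dld, the third enzyme of the pyruvate dehydrogenase complex and shared with other complexes, had 341.3 and 352.4 CPM in mutant atria and 274.6, 293.5 and 270.5 CPM in control atria (0.31). Slc2a12, a glucose carrier, had 10.7 and 6.94 CPM in mutant atria and 4.21, 4.57 and 4.87 CPM in control atria (0.96), with mutant 5 well above mutant 7. Both mutant libraries lay above the controls in each of these 4 genes.

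The 2 lower genes sit in the control of the pathway. Phkg1, the muscle catalytic subunit of phosphorylase kinase, which activates glycogen phosphorylase, had 5.65 and 4.06 CPM in mutant atria and 10.9, 8.45 and 13.3 CPM in control atria (log2 fold change -1.16 ± 0.22 SE; adjusted p = 0.026 by Benjamini-Hochberg, edgeR quasi-likelihood). Prkag2, a regulatory subunit of the energy sensor AMPK whose human mutations cause a glycogen-storing heart disease, had 173.9 and 178.8 CPM in mutant atria and 233.1, 214.7 and 221.7 CPM in control atria (-0.34 ± 0.07 SE). Groups were separate in both. With 1 library left out, the number of these other genes that passed was 1 without control 2, 2 without control 4, 4 without control 6, 10 without mutant 5 and 5 without mutant 7. Pcx passed each time, and each of the other 5 lost its call without at least 1 library. Without mutant 5 the log2 fold change of Slc2a12 was 0.61 and did not pass. The next 8 genes by p did not pass: Tkt, transketolase (0.25), Myc, which encodes an activator of glycolytic genes (0.44), Adpgk, the ADP-dependent glucokinase (0.35), Pck2, mitochondrial PEP carboxykinase (0.31), Pdpr (0.23) and Dlat (0.20) of the pyruvate dehydrogenase system, Tigar, a phosphatase (-0.29), and Esrra, a nuclear receptor of energy metabolism (-0.21), each value being a log2 fold change. Hif1a, the hypoxia factor's regulated subunit, had a log2 fold change of -0.08 (95% interval -0.23 to 0.08).

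**Figure D5:**
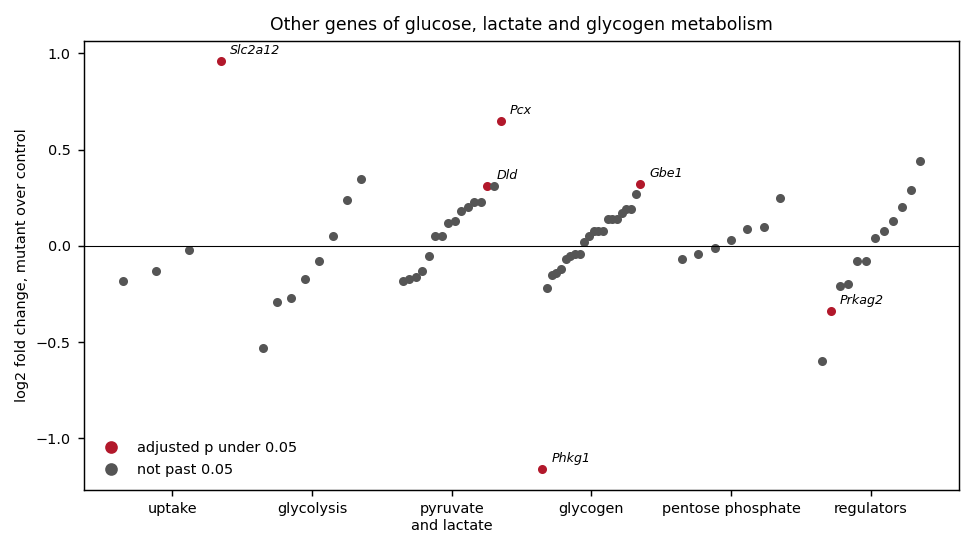
Log2 fold change, mutant over control atria, of the 69 tested other genes of the pathway, by group and in rising order within it. The 6 labelled genes passed edgeR's test, with Slc2a12 highest at 0.96 and Phkg1 lowest at -1.16.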

How the data were processed

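Poly-A RNA of newborn mouse atria was sequenced as 5 libraries, 2 mutant and 3 control, grouped by their titles; the groups share no replicate number. For each gene and library the authors deposited a raw read count. The same deposited table holds RPKM, pooled by the authors to 1 value per group, with their log2 ratio (mutant over control), p-value and adjusted p-value. Per the submitters' processing notes, reads were handled with TopHat2 2.0.4, HTSeq 0.5.4p3 and DESeq on build mm9, with no role given for each. Strand use in counting is not stated in them. A shorter deposited table was not used here. Entries for reads in no feature (3.97% to 6.03%) and ambiguous reads (2.31% to 3.18%) were left out of totals and tests.

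Counts were tested with edgeR 4.0.16 in R 4.3.3: filterByExpr (minimum count 10, minimum total 15), TMM scaling, a robust quasi-likelihood test without covariates over 17835 genes, and Benjamini-Hochberg adjustment at 0.05. Standard errors were taken as log2 fold change over the root of F, and the prior count was 0.125. The fit was tested on simulated counts. With 2 against 3 libraries an exact permutation p cannot go below 0.1. Reads shared between genes were judged from 50-base words of GENCODE vM21 transcripts and from overlapping exons. Alternatives were other tests (DESeq2 1.42.0; voom of limma 3.58.1), other scaling (library totals alone; DESeq2's size factors in edgeR), other filters (none; 1 CPM or more in 2 libraries), a threshold of 0.01, sex as a covariate and leaving out each library. Adding the reads of near-identical copies, and a covariate for the libraries split by the share of reads counted for Eno1's copies, were chosen after seeing the data. The members, lists, pairs and the rule for named genes were chosen with earlier results of these data known. By that rule all 35 members are described, in full where the adjusted p is under 0.05 or the unadjusted p is under 0.05 with separate groups. Of the other pathway genes it names those that passed and up to 8 more by p. Eno1's, Ldhb's and Pgam1's copies, Hif1a, Pdk4, Mpc1, Mpc2, Gyg and Txnip are named besides, chosen after their values were seen.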

Additional observations from a re-analysis of the deposited data

How the results depend on the processing

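No paired analysis was made, since the groups share no replicate number. That alone does not show whether any mutant and control libraries belonged together. Over 14 alternative settings, 27 of the 35 genes kept the direction of their fold change, and of 461 values 427 also kept their side of the threshold, 13 gained a call, 9 lost it and 12 reversed. Hk1, Pgam1, Slc16a3 and Aldoc were called in every setting at the threshold of 0.05, and 25 members in none. The count of members called was 10 with DESeq2 (7 higher, 3 lower, adding Ldhb, Pfkfb3, Pdhb and Slc16a1), 3 at a threshold of 0.01 and 4 to 7 with 1 library left out. With library totals alone 3 were higher and 3 lower, Slc2a1 being lost and Slc16a1 gained. The count over all genes was 391 at 0.01, 2004 with DESeq2 and 529 to 1714 with 1 library left out, the lowest without control 2 (534 without control 4, 746 without control 6). The other pathway genes gave 1 call at 0.01, 10 with no filter, 10 with DESeq2 and 1 to 10 with 1 library left out. With library totals alone, which moved the median log2 fold change by -0.036, Aldoa (-0.00), Pygb (-0.00) and Ugp2 (-0.01) reversed. With 1 library left out, reversals came in the ranges -0.05 to 0.10 for Aldoa, -0.05 to 0.00 for Tpi1, -0.07 to 0.19 for Gapdh, -0.01 to 0.10 for Eno3, -0.10 to 0.22 for Pfkfb1, -0.18 to 0.31 for Pfkfb2, -0.01 to 0.07 for Pygb and -0.02 to 0.09 for Pdk2 over Pdk1. None of these values had passed a test. The cause of these changes was not tested. Adding near-identical copies, and splitting the libraries by copy share, both chosen after seeing the data, each left 6 members called. Intervals and p-values rest on 5 libraries.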

Other observations

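Other genes at the edges of the pathway, chosen for mention after their values were seen, overlapped between groups and did not pass edgeR's quasi-likelihood test. The mitochondrial pyruvate carrier genes Mpc1 and Mpc2 averaged 160 and 97.8 CPM in mutant atria and 147 and 94.1 CPM in control atria. Pdk4, the pyruvate dehydrogenase kinase induced by fasting, averaged 81.4 CPM in mutant atria and 69.4 CPM in control atria (log2 fold change 0.23, 95% interval -0.15 to 0.61). Gyg, the primer protein of glycogen, averaged 485 CPM in mutant atria and 442 CPM in control atria (0.14). Txnip, a glucose-responsive inhibitor of glucose uptake, averaged 297 CPM in mutant atria and 314 CPM in control atria (-0.08). Of 6 fat markers, Adipoq, Plin1, Ucp1 and Lep reached at most 0.119 CPM in any library, and Cidea rose, with 10.9 CPM in both mutant libraries and 8.13, 7.04 and 6.74 CPM in control atria (log2 fold change 0.57; adjusted p = 0.026 by Benjamini-Hochberg, edgeR quasi-likelihood). Fabp4, which endothelial cells also express, had 172 and 191 CPM in mutant atria and 180, 173 and 150 CPM in control atria, and did not pass.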
